A study of Mus musculus with 17 samples.

Results

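Type 2 conventional dendritic cells (cDC2s) that had been cultured with necroptotic tumor cell debris were compared with cDC2s that had been cultured with apoptotic tumor cell debris. The comparison was defined by the sample labels, with earlier results of these data known. It uses 5 of the 17 samples of the study: 2 samples of cDC2s with RIPK3 medium and 3 samples of cDC2s with BimS medium, all taken at 6 h. The other samples are 3 of cDC2s with WT medium, which enter the model and are given beside the results, and 9 of type 1 cells (cDC1s), in 3 groups of 3. The question that the study put to these groups is how the way in which a tumor cell dies affects the dendritic cells that meet its remains.

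All cells came from pooled spleens of female C57BL/6JRj mice, bought at 8 weeks of age, that carried a subcutaneous B16 tumor secreting FLT3L, a growth factor that expands dendritic cells. CD11c+ spleen cells were enriched with magnetic beads and cultured with the medium of TC-1 cells, a C57BL/6 lung epithelial line transformed with HPV16 E6 and E7 and H-ras. The 3 media came from TC-1 WT cells, from TC-1-iBimS cells and from TC-1-iRIPK3 cells, and all 3 lines had received the inducer cumate, so that WT stands for live cells with the inducer. Cumate switches on the apoptosis inducer BimS in the first subline and, in the second, RIPK3 joined to a domain that makes it oligomerize. The iBimS and iRIPK3 lines are single-cell clones and carry zsGreen, so the type of death and the clone cannot be told apart. The medium was used whole, with all that the dying cells had released. The cDC2s (SIRPα+, CD11b+ and XCR1-) were sorted after culture and not on whether they had taken up debris, so that every sample mixes cells with and without it. In a separate assay the study reports that cDC2s took up apoptotic debris more efficiently than necroptotic debris. The share of cells with debris may therefore differ between the groups compared. In such bulk samples, fewer cells of a kind and less RNA per cell cannot be told apart. The sources used here do not say whether samples with different numbers came from different pools of mice or cultures, and p-values then measure only the spread between these samples.

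As background, apoptotic cells are dismantled by caspases inside a closed membrane, whereas RIPK3 drives necroptosis through the pore-forming protein MLKL, so that the cell content escapes. cDC2s present antigen on MHC class II and are known for priming CD4+ T cells. Like other dendritic cells they answer type I interferon through the receptor IFNAR and a complex of STAT proteins with IRF9, which binds the interferon-stimulated response element (ISRE) in promoters of antiviral genes. A second program, the integrated stress response, acts through the transcription factor ATF4 when amino acids run short or oxidants or misfolded proteins load the cell.

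The 5 samples held between 16095159 and 20240545 reads counted on genes, and levels are given as CPM, counts per 1 M reads after TMM scaling. Replicates of a group differed by more than sampling noise, with a chi-square per degree of freedom of 8.77 to 18.9 in these samples and up to 47.1 in the WT samples. None looked like a library deposited again. The share of reads on mitochondrial genes was 0.611% and 0.625% with RIPK3 medium, against 0.678% to 0.689% with BimS medium. Among genes of the markers used in the sort, Sirpa stood at a mean of 188 CPM with BimS medium and 183 CPM with RIPK3 medium. The cDC1 receptor Xcr1 stood at 0.686 and 0.829 CPM. These levels reflect the sort gate and do not test identity beyond it; sums over longer marker lists are given below. Ripk3 and Bcl2l11, the gene of Bim, are overexpressed in the tumor cells and not in the dendritic cells. Ripk3 was measured at 29.8, 35 and 43.4 CPM with BimS medium and at 35.2 and 44.2 CPM with RIPK3 medium (log2 fold change 0.14 ± 0.16, adjusted p = 0.862; 0.28 with the replicate block, adjusted p = 0.0039). Bcl2l11 stood at means of 288 and 277 CPM (adjusted p = 0.905).

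Compared with apoptotic debris, necroptotic debris left cDC2s with less RNA of antiviral genes of the IFIT, OAS, GBP, SLFN and IFI200 families and with more RNA of stress and early response genes, among them Chac1, Atf3, Ddit4, Per1, Ptgs2, Fos and Gem. The falls reached 4-fold (log2 fold change -2.04 for Gm5431) and the rises slightly more than 2-fold (1.18 for Gadd45a). With edgeR's quasi-likelihood test and Benjamini-Hochberg adjustment, which give every fold change, standard error and adjusted p here, 73 of 19239 genes passed an adjusted p of 0.05 (0.379% of the genes tested). Of these, 31 were higher with RIPK3 medium (0.161%) and 42 were lower (0.218%), and 1653 genes had an unadjusted p under 0.05. The falls ranged from -0.41 to -2.04 and the rises from 0.38 to 1.18 on the log2 scale, and 17 genes changed by more than 1. The RIPK3 and BimS samples of all 73 genes did not overlap in CPM, which was also so for 26.8% of all genes tested.

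The replicate numbers in the labels were taken to pair the samples, with less ground for the RIPK3 samples, as described with the processing. The spread between samples of a group was mostly a spread between numbers. With the number as a block, the coefficient of biological variation dropped from 9.576% to 3.868%, and 2755 genes passed (14.3%), of which 1138 were higher (5.92%) and 1617 lower (8.40%). All 73 genes were among them, and 115 of the 2755 changed by more than 1 on the log2 scale. The blocked fit has 3 residual degrees of freedom, and for most genes edgeR took the variance from the common trend. Among genes with a mean log2 CPM of 3 or more, the blocked log2 fold change also moved with the length of the gene: its median was 0.10 in the tenth of genes with the shortest exonic sequence and -0.16 in the tenth with the longest, and the share called lower rose from 5.67% to 43.9% between them. With terms for length and GC content, 2653 genes passed with the block, and 2061 of these were among the 2755. Without the block, 152 genes passed with these terms, 76 in each direction, and 72 of the 73 remained called.

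The number of genes called without the block rested on single libraries. It was 12 without RIPK3 replicate 1 and 0 without RIPK3 replicate 2 (898 genes at an unadjusted p under 0.05), where the lone RIPK3 sample is assumed to vary like the other groups. It was 23 without BimS replicate 1, 38 without BimS replicate 2 and 53 without BimS replicate 3, and 148, 48 and 214 without WT replicates 1, 2 and 3. With the block it was 1499 without RIPK3 replicate 1, 1653 without RIPK3 replicate 2 and 1743 without BimS replicate 2. No call among the 73 changed direction in any of these. With limma on log2 counts without normalization, 148 genes passed, 17 higher and 131 lower, and the median of all genes was -0.0989.

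**Figure D1:**
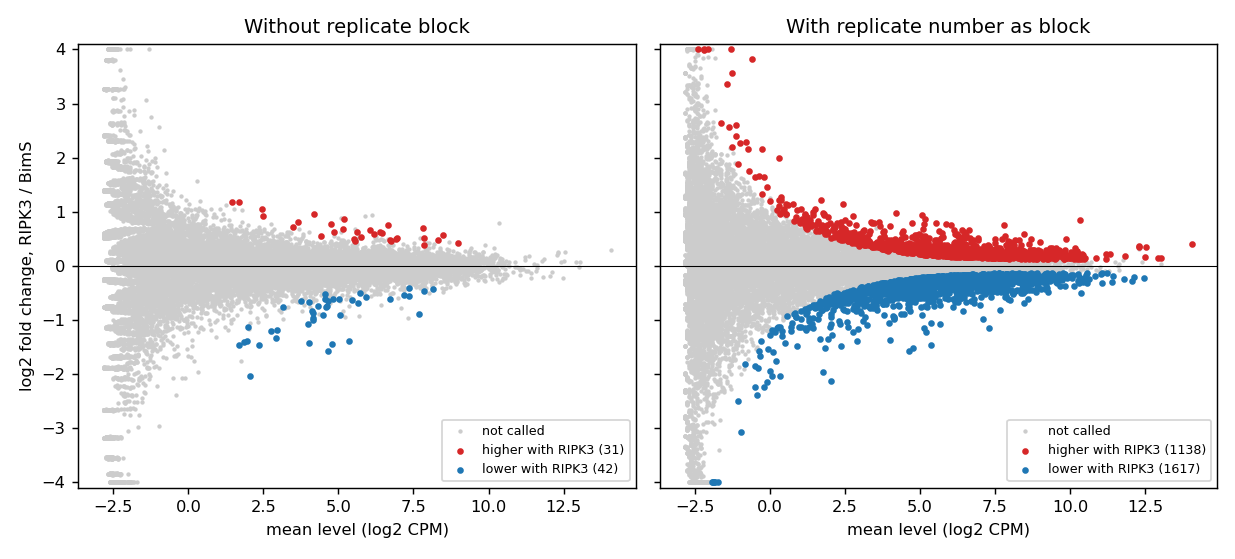
Log2 fold change of RIPK3 against BimS medium in cDC2s (vertical axis) against mean level in log2 CPM (horizontal axis), 1 point per gene tested, without the replicate block and with it, with called genes coloured. The 42 genes called lower without the block reach -2.04 and the 31 called higher reach 1.18; 128 points without and 147 points with the block lie outside the axis and are drawn at its edge.

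Most of the 10 largest falls were in antiviral gene families, with Itgb8 an exception described later. Ifit1 (ENSMUSG00000034459, GRCm39 chr19:34618271-34632174), whose product binds viral RNA lacking a host cap, stood at 24.1, 15.4 and 19.7 CPM with BimS medium and at 7.61 and 5.65 CPM with RIPK3 medium. Its level in the WT samples was 41.7, 42.0 and 42.0 CPM, so that the 3 groups did not overlap and the RIPK3 samples were lowest. The difference between RIPK3 and BimS was -1.57 ± 0.18 (adjusted p = 0.000476). Ifit2, of the same family, measured 25.3, 22.8 and 21.0 CPM with BimS medium against 9.59 and 7.34 CPM with RIPK3 medium, with WT samples between 38.1 and 47.2 CPM (-1.45 ± 0.15, adjusted p = 0.000104). Ifit3 measured 12.8, 9.38 and 13.4 CPM against 5.44 and 3.38 CPM (-1.43 ± 0.20, adjusted p = 0.00232). Every RIPK3 sample of these genes lay under every BimS sample. The copies Ifit3b (-1.39) and Ifit1bl1 (-1.19) also fell, but reads of near-identical copies in the IFIT, SLFN, GBP, IFI200 and GVIN families may have been split between them by the counting.

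The other members of this group act at several points of the antiviral program. Gm5431, the largest fall, stood at 4.3, 2.80 and 2.78 CPM with BimS medium and at 1.02 and 0.583 CPM with RIPK3 medium (-2.04 ± 0.33, adjusted p = 0.00612). Slfn5, of the Schlafen family of growth and virus restriction factors, measured 39.9, 26.8 and 29.0 CPM against 14.4 and 9.91 CPM (-1.39 ± 0.21, adjusted p = 0.015). Usp18, which removes ISG15 from proteins and restrains the interferon receptor, measured 15.0, 9.38 and 13.9 CPM against 7.23 and 4.89 CPM (-1.07 ± 0.20, adjusted p = 0.0205). In all 3 genes the groups were separate, with the RIPK3 samples lower. Rsad2 encodes viperin, which makes a chain-terminating nucleotide, and stood at 34.9, 26.4 and 30.9 CPM against 19.1 and 13.8 CPM (-0.90 ± 0.14, adjusted p = 0.00466). Oasl2, a relative of the 2'-5' oligoadenylate synthetases that sense double-stranded RNA, stood at 180, 153 and 195 CPM against 103 and 87.1 CPM (-0.89 ± 0.11, adjusted p = 0.000742). The synthetases Oas2 (-0.76) and Oas3 (-0.74), the myxovirus resistance gene Mx2 (-1.20), the pro-apoptotic Xaf1 (-0.90), Ifi44 (-1.46) and the guanylate-binding GTPases Gbp4 (-0.96), Gbp7 (-0.87), Gbp9 (-0.84) and Gbp2 (-0.74), which attack pathogen vacuoles, fell as well. Cxcl10, the chemokine that draws CXCR3+ T cells, measured 8.61, 7.75 and 7.98 CPM with BimS medium and 5.05 and 4.55 CPM with RIPK3 medium (-0.76 ± 0.16, adjusted p = 0.0412). The transcribed pseudogene Gm12250 (-1.33) and the IFI200 genes Ifi206 (-1.47), Ifi205 (-0.61), Ifi211 (-0.61) and Mndal (-0.51) were called as well, as was Slfn8 (-0.57, adjusted p = 0.039), a relative of Slfn5.

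**Figure D2:**
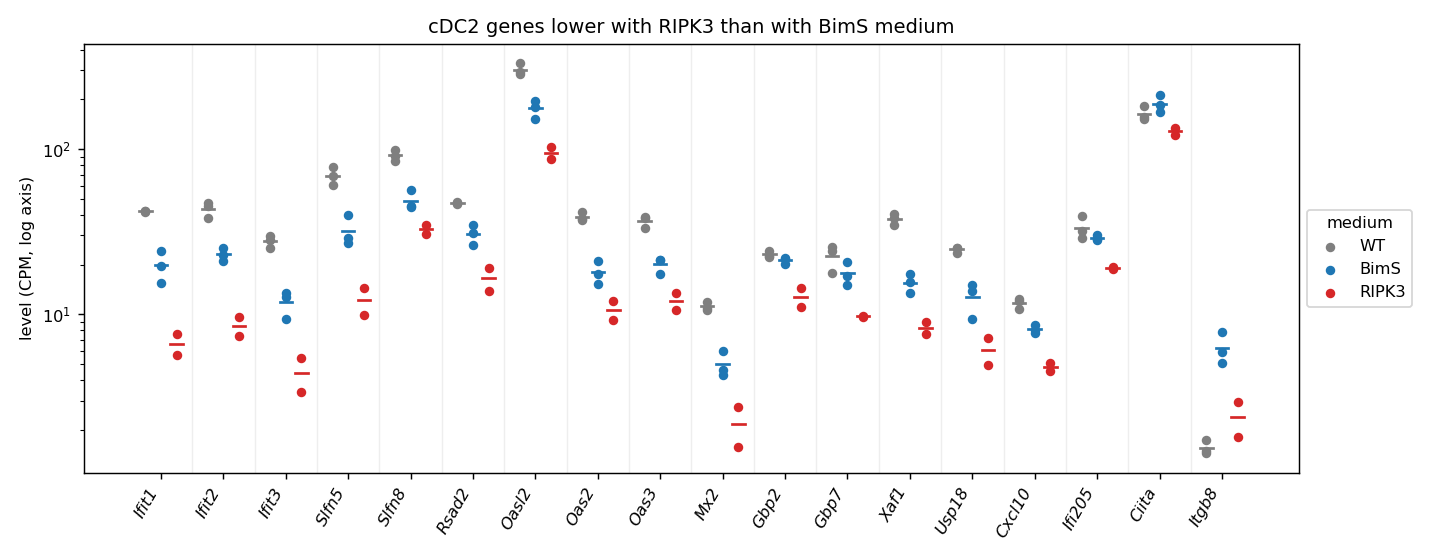
CPM on a log axis of genes with lower levels in cDC2s with RIPK3 medium, 1 point per sample for WT, BimS and RIPK3 medium, with bars at the group means. In Ifit1 the RIPK3 samples sit at 7.61 and 5.65 CPM, under the 3 BimS samples, which start at 15.4 CPM.

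Over the list of 43 measured interferon effectors, 16 fell, 0 rose and the median log2 fold change was -0.74, beside a median of -0.00462 over all genes tested. Over all genes tested, 0.218% were called lower and 0.161% higher. With the block, 32 of 43 were called lower and 2 higher, beside 8.40% and 5.92% of all genes tested, shares that also stand behind every blocked count of list members given below. The median with the block was -0.71. In 33 of the 43 both RIPK3 samples were below all BimS samples, which was so for 13.1% of all genes tested. The 2 called higher with the block were Isg15, the ubiquitin-like modifier, at 55.9, 47.5 and 58.8 CPM against 69.5 and 58.2 CPM (0.24 ± 0.14, adjusted p = 0.675; 0.35 with the block, adjusted p = 1.83e-06), and Ifitm3, which blocks viral entry, at means of 98.1 and 111 CPM (0.17, adjusted p = 0.792; 0.29 with the block, adjusted p = 8.79e-06). The samples of both genes overlapped between the groups. Isg15 and Ifitm3 were also the members with a log2 fold change above 0 without the block.

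Of 16 measured genes that receive and pass on the interferon signal, the receptors and JAK-STAT genes, Usp18 alone was called, and the median was -0.06. With the block 4 were called higher, among them the feedback inhibitor Socs3 (0.23, adjusted p = 8.74e-05), and 5 lower. Irf7, the factor that amplifies interferon production, measured 68.8, 56.2 and 81.9 CPM against 55.3 and 47.5 CPM (-0.42 ± 0.18, adjusted p = 0.567; -0.26 with the block, adjusted p = 0.000722). Stat2 was called lower with the block only (-0.31, adjusted p = 4.42e-07), at means of 154 and 127 CPM. Of 25 measured nucleic acid sensors 1 passed, Ifi205, and 14 were called lower and 2 higher with the block, with medians of -0.43 and -0.40. Among those called lower with the block were Rigi (-0.59, adjusted p = 2.30e-14) and Ifih1 (-0.52, adjusted p = 3.43e-10), the cytosolic sensors of viral RNA, and Zbp1 (-0.64, adjusted p = 2.14e-05), a sensor of Z-form nucleic acids that can itself engage RIPK3.

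Several of the falling genes are neighbours. Within 200 kb of another, 17 of the 42 genes that fell lay in 6 groups of GRCm39: Ifit2, Ifit3, Ifit1bl1, Ifit3b and Ifit1 on chr19:34527932-34632174, Mndal, Ifi211 and Ifi205 on chr1:173676539-173859456, Abcg3, Gbp9 and Gbp4 on chr5:105082923-105287609, Gbp7 and Gbp2 on chr3:142236044-142343779, Oas2 and Oas3 on chr5:120868398-120915729, and Slfn5 and Slfn8 on chr11:82842100-82911669. The annotations of Gbp4 and Gbp9 overlap, and the strandedness of the counting is not given in the sources used here, so reads of this pair may be shared. Among the genes that rose, Fos and Jdp2 on chr12:85520658-85690570 were neighbours in the same sense.

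The promoters of the genes that fell carry the core of the ISRE more often than promoters at large. The letters GAAA, any pair of bases and GAAA again were searched on either strand in the 250 bases before the start in the RefSeq promoter windows of GRCm38.p6, a build older than the GRCm39 of the counts. Of the 42 genes that fell, 31 had a window, and 16 of these held a match (51.6%). Of the 31 genes that rose, 27 had a window and 0 held one, beside 386 of 11388 genes tested with a window (3.39%) and 2.98% of all 32851 windows. Of the interferon effectors, 22 of 35 with a window held one (62.9%). A match describes the letters only and is no evidence that a factor binds there. The following stretches are shown because they hold the matches, in capitals, of genes with large or well measured falls. They read 5′ to 3′ in the direction of the gene, for Ifit1 (chr19:34640760-34640838, + strand), Ifit3 (chr19:34583348-34583441, +), Ifit3b (chr19:34607744-34607837, +), Rsad2 (chr12:26456538-26456597, -), Oas3 (chr5:120777700-120777759, -), Cxcl10 (chr5:92349068-92349127, -) and Gbp2 (chr3:142620579-142620638, +).
Ifit1: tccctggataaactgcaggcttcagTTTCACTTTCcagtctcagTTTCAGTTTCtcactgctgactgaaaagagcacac
Ifit3: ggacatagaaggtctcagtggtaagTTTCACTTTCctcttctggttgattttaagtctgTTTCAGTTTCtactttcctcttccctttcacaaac
Ifit3b: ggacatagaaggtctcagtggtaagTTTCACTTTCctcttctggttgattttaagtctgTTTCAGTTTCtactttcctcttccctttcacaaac
Rsad2: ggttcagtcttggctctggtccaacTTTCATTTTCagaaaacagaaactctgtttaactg
Oas3: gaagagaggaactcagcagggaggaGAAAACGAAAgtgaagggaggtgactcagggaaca
Cxcl10: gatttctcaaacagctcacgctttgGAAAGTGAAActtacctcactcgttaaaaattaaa
Gbp2: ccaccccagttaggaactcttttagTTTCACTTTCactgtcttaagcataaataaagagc
Ifit1, Ifit3 and Ifit3b hold 2 matches each and the others 1. The stretches of Ifit3 and Ifit3b are identical. The matches of Ifit1 lie between 104 and 76 bases before the start, that of Gbp2 between 59 and 50 bases, and that of Cxcl10 between 213 and 204 bases.

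Genes outside the antiviral group fell too. Itgb8 encodes an integrin subunit that activates latent TGF-β, and it stood at 7.76, 5.91 and 5.08 CPM with BimS medium, at 2.94 and 1.81 CPM with RIPK3 medium and at 1.49 to 1.73 CPM with WT medium (-1.40 ± 0.24, adjusted p = 0.0107). Here, unlike in Ifit1, the BimS samples were the highest of the 3 media. Abcg3, a membrane transporter gene, measured 21.9, 20.0 and 23.5 CPM against 10.2 and 11.6 CPM (-1.0 ± 0.13, adjusted p = 0.000957). Cysltr1, a receptor for cysteinyl leukotrienes, measured 56.1, 56.5 and 50.4 CPM against 33.9 and 33.8 CPM (-0.68 ± 0.10, adjusted p = 0.00256). Both genes were separate between the groups. Kynu (-0.67, adjusted p = 0.0234) and Kmo (-0.42, adjusted p = 0.0496), which encode enzymes of tryptophan breakdown, fell. So did Timd4, a receptor for phosphatidylserine on dying cells (-0.52), Fabp5, a fatty acid carrier (-0.47), the death-associated kinase Dapk1 (-0.54), the small GTPase Rnd3 (-0.61), and the transcriptional regulators Cited2 (-0.66), Mrtfb (-0.65) and Cbfa2t3 (-0.63). The mitochondrial gene mt-Nd2 (-0.42) and the transcript 1110002J07Rik (-1.12) were also called. Genes named beyond those that the naming rule in the processing picks were chosen after their values were seen.

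Ciita, the master regulator of MHC class II transcription, fell while the class II genes did not. Ciita stood at 168, 212 and 185 CPM with BimS medium and at 121 and 134 CPM with RIPK3 medium, with WT samples at 152 to 181 CPM (-0.56 ± 0.11, adjusted p = 0.0214). H2-Ab1, which encodes the class II β chain, had means of 5615 and 6699 CPM and overlapping samples (0.25 ± 0.19, adjusted p = 0.775), and with the block it was called higher (0.35, adjusted p = 3.01e-14). H2-Aa (0.34) and H2-Eb1 (0.36) were called higher with the block too. Marchf1, the ubiquitin ligase that removes class II and CD86 from the surface, measured 3.33, 3.88 and 4.2 CPM against 1.41 and 1.92 CPM, separate groups that passed with the block only (-1.18 ± 0.27, adjusted p = 0.0623; -1.14, adjusted p = 0.000239). Of 12 measured class II presentation genes, Ciita was the only call without the block, and 6 were called higher and 2 lower with it.

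The block added falls in genes whose level varied between the replicate numbers. Rnf213, an interferon-induced ubiquitin ligase, stood at 163, 113 and 88.6 CPM with BimS medium and at 71.9 and 52.3 CPM with RIPK3 medium (-0.97 ± 0.37, adjusted p = 0.562; -1.16 ± 0.06 with the block, adjusted p = 1.18e-82). Ccl22, the chemokine that draws CCR4+ T cells, measured 69.4, 47.2 and 36.6 CPM against 30.8 and 22.7 CPM (-0.93, adjusted p = 0.48; -1.07 with the block, adjusted p = 1.17e-43). In both genes replicate 1 was the highest and, among the BimS and WT samples, replicate 3 the lowest, and the RIPK3 samples lay under the BimS samples of the same number. Gvin4 (-1.22), Gvin3 (-1.14), Zbed6 (-1.05) and Ahnak (-0.99) were also called with the block only, and Mx1 (-0.83, adjusted p = 0.0501) and Ifi47 (-0.98, adjusted p = 0.0531) lay just outside the threshold without it. Rnf213 and Ahnak are long genes, with exonic lengths of 16719 and 23998 bases. Of the tenth of genes with the longest exonic sequence, 43.9% were called lower with the block. The part of length in these 2 falls was not tested. Of 25 measured genes of cholesterol synthesis and uptake, 0 passed without the block and 12 were called lower and 2 higher with it, with a median of -0.18 without and -0.20 with the block. Among them were Stard4 (-0.73), a sterol carrier, and Sqle (-0.62), an enzyme of sterol synthesis. Sqle measured 23, 21.7 and 17.3 CPM against 14.6 and 13.2 CPM, with WT samples at 8.57 to 9.53 CPM. Of all 25 genes, 14 had both RIPK3 samples under all BimS samples, beside 13.1% of all genes tested.

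Among the rises, targets of ATF4 formed a group. Chac1, which breaks down glutathione, stood at 7.88, 9.59 and 8.99 CPM with BimS medium and at 13.5 and 17.4 CPM with RIPK3 medium (0.81 ± 0.15, adjusted p = 0.015). The WT samples, at 12.6 to 15.5 CPM, were nearer to the RIPK3 samples than to the BimS samples. Atf3, a stress-induced transcription factor, measured 16.6, 23.2 and 23.5 CPM against 33.1 and 38.8 CPM, with WT samples at 24.7 to 27.8 CPM (0.77 ± 0.13, adjusted p = 0.0107). Ddit4, an inhibitor of mTORC1, measured 65.3, 61.2 and 69.8 CPM against 109 and 99.1 CPM, with WT samples at 36.5 to 48.5 CPM (0.67 ± 0.11, adjusted p = 0.00699). The RIPK3 samples of all 3 genes were above all BimS samples. Trib3, a pseudokinase that dampens ATF4 signalling, measured 19.1, 28.7 and 24.8 CPM against 38.8 and 51.2 CPM and passed with the block only (0.89 ± 0.19, adjusted p = 0.0985; 0.93 ± 0.08, adjusted p = 1.06e-29). So did Nupr1 (0.78 with the block), Sesn2 (0.52 with the block) and Atf4 itself, at means of 600 and 716 CPM (0.32 with the block, adjusted p = 1.20e-10). Of 26 measured genes on this list 3 rose, 0 fell and the median was 0.35; with the block 19 were called higher and 1 lower, Slc7a11, the cystine transporter, at -0.27. Of 16 measured ER chaperones and genes of the unfolded protein response, 0 passed without the block and 4 were called higher and 1 lower with it, beside 14.3% of all genes called in either direction, with a median of -0.04.

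The composite element TGATGCAA, where ATF4 pairs with a C/EBP protein, was searched in the same windows on either strand. It was found in 3 of the 27 genes with a window that rose (11.1%), 0 of the 31 that fell and 0.615% of the genes tested with a window. Of all windows, counted singly, 0.791% held it, and a gene with several windows has more chances of a match. The matches are printed in capitals for these 3 genes, in GRCm38.p6 at Chac1 (chr2:119351024-119351081, + strand), Atf3 (chr1:191183411-191183468, -) and Jdp2 (chr12:85599358-85599415, +).
Chac1: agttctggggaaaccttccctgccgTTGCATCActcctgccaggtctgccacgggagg
Atf3: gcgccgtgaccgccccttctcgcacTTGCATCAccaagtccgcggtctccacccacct
Jdp2: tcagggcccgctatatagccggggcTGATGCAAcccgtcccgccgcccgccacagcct
On the ATF4 list, 5 of 20 genes with a window held the element (25%). The full cAMP response element TGACGTCA was found in 0 of the genes with a window in both called sets, beside 2.9% of the genes tested with a window and 1.55% of all windows.

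The second group of rises were early response genes, many of which are known to be induced through cAMP and CREB. Per1, a core clock repressor, stood at 31.6, 31.7 and 31.1 CPM with BimS medium and at 51.4 and 63.2 CPM with RIPK3 medium, with WT samples at 24.1 to 28.9 CPM (0.87 ± 0.11, adjusted p = 0.000742). Ptgs2, the cyclooxygenase that makes prostaglandin precursors, measured 110, 119 and 98.5 CPM against 195 and 175 CPM, with WT samples at 27.6 to 38.4 CPM (0.76 ± 0.12, adjusted p = 0.00605). For Ptgs2 the 3 media were thus ordered WT, BimS and RIPK3 with no overlap. Fos, a subunit of AP-1, measured 77.1, 78.3 and 83.8 CPM against 118 and 124 CPM (0.60 ± 0.09, adjusted p = 0.00265). Gem, a small GTPase that inhibits calcium channels, measured 70.0, 71.8 and 69.5 CPM against 105 and 107 CPM (0.59 ± 0.09, adjusted p = 0.00265). The samples of both genes differed within a group by far less than between the groups. Nr4a2, an orphan nuclear receptor, measured 111, 124 and 118 CPM against 161 and 176 CPM (0.52 ± 0.09, adjusted p = 0.00892), whereas its relative Nr4a3 was called lower with the block, at means of 2782 and 2369 CPM (-0.23, adjusted p = 0.598; -0.30, adjusted p = 8.57e-10). Of 18 measured cAMP and CREB targets 5 rose, 0 fell and the median was 0.31, and 11 were called higher and 2 lower with the block. Of 22 AP-1 and early response genes 2 rose without the block, Fos and Atf3, and 8 were called higher and 1 lower with it. Jdp2, a repressor of AP-1 and neighbour of Fos, measured 303, 359 and 345 CPM against 493 and 507 CPM (0.57 ± 0.10, adjusted p = 0.00717). Per1, Ddit4 and Tsc22d3 (0.54, adjusted p = 0.0484), which encodes the glucocorticoid-induced leucine zipper, were the 3 calls among 11 measured glucocorticoid-responsive genes, while Fkbp5 stood at means of 18.5 and 15.8 CPM (-0.23, adjusted p = 0.633). Per1 was also the single call among 19 clock genes, of which 2 were called higher and 2 lower with the block.

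**Figure D3:**
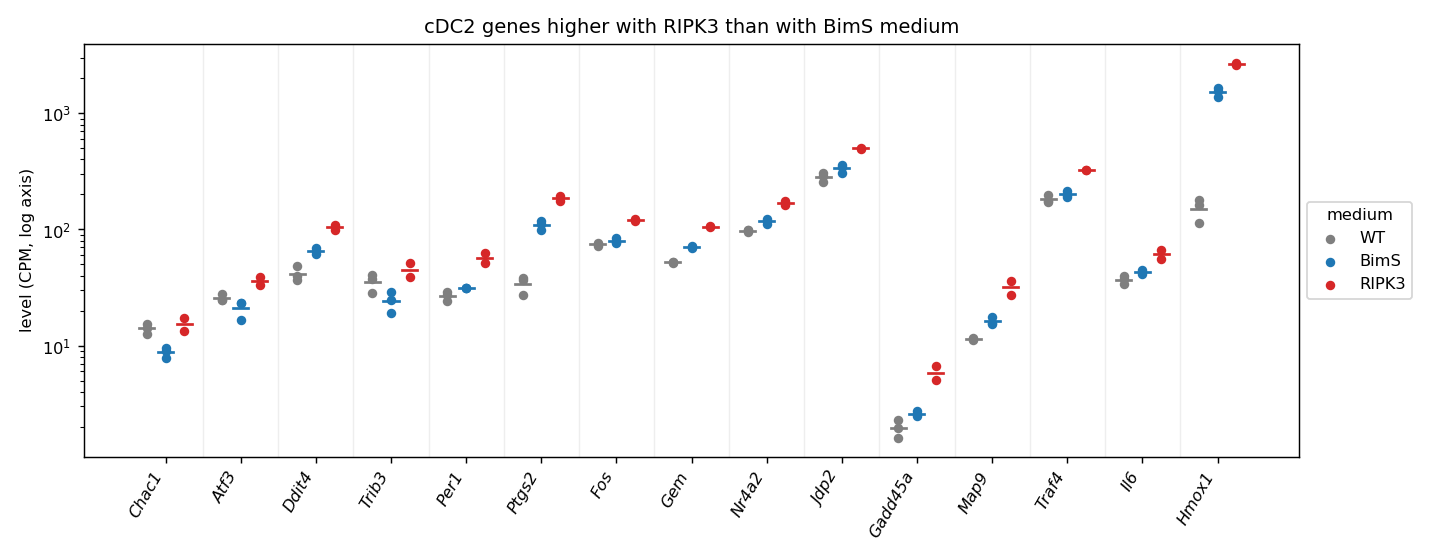
CPM on a log axis of genes with higher levels in cDC2s with RIPK3 medium, 1 point per sample for WT, BimS and RIPK3 medium, with bars at the group means. In Gem the RIPK3 samples sit at 105 and 107 CPM and the BimS samples between 69.5 and 71.8 CPM.

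Further genes rose outside these groups. Traf4, an adaptor of the TNF receptor associated family, stood at 190, 198 and 214 CPM with BimS medium, at 324 and 327 CPM with RIPK3 medium and at 173 to 196 CPM with WT medium (0.70 ± 0.09, adjusted p = 0.000742). Map9, a microtubule-associated protein, measured 15.4, 15.8 and 17.7 CPM against 27.2 and 36.1 CPM (0.96 ± 0.13, adjusted p = 0.000959). Gadd45a, a p53 target that slows the cell cycle, measured 2.73, 2.60 and 2.48 CPM against 5.05 and 6.70 CPM (1.18 ± 0.21, adjusted p = 0.0126), and it was the only call among 21 measured p53 targets, of which 5 were called higher and 3 lower with the block. The cytokine Il6 measured 43.2, 41.7 and 45.2 CPM against 66.8 and 55.6 CPM (0.50 ± 0.11, adjusted p = 0.0429). In each of these genes both RIPK3 samples exceeded every BimS sample. The receptor of interleukin 21, Il21r (0.51), the growth factor Pgf (0.47), the lysosomal protease Lgmn (0.42), the deacetylase Hdac5 (0.49), the chromatin genes Phc2 (0.62) and Sp140 (0.38), Hopx (0.54), Ifrd1 (0.48), Fbxo34 (0.49), Gprc5a (0.46), Tbc1d31 (0.63), Zfp667 (0.62), Pou6f1 (0.92) and Lzts2 (1.06) also rose, as did the transcripts D030028A08Rik (1.18) and 1110038B12Rik (0.72). Of 18 measured NF-kB subunits, adaptors and inhibitors Traf4 was the single call, and of 31 chemokines and cytokines Il6 rose and Cxcl10 fell. With the block 7 of the 31 were called higher and 3 lower, the latter being Cxcl10, Ccl22 and Il36g (-0.68, adjusted p = 0.00076). Il1b, at means of 6093 and 6449 CPM, passed with the block only (0.08, adjusted p = 0.864; 0.16, adjusted p = 0.00197).

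Hmox1, the enzyme that degrades heme, was far above its WT level with either debris and higher with RIPK3 medium. It stood at 1380, 1569 and 1658 CPM with BimS medium and at 2579 and 2720 CPM with RIPK3 medium, against 114, 179 and 161 CPM with WT medium. The RIPK3 and BimS samples did not overlap, but the difference passed with the block only (0.79 ± 0.15, adjusted p = 0.0673; 0.85 ± 0.12, adjusted p = 0.00356). Fth1, a subunit of the iron store ferritin (0.40, adjusted p = 7.53e-20), and Slc48a1, a heme transporter (0.38, adjusted p = 2.91e-11), were likewise called with the block. Over the list of 27 measured NRF2, glutathione and heme genes 0 passed without the block, and 7 were called higher and 5 lower with it, with a median of -0.09 without and -0.00 with the block. Tiparp, a target of the aryl hydrocarbon receptor, measured 70.3, 55.7 and 53 CPM against 126 and 99.4 CPM (0.92, adjusted p = 0.471; 0.78 with the block, adjusted p = 1.52e-31). Areg, an epidermal growth factor ligand, was called higher with the block (0.61, adjusted p = 5.05e-19). Of 17 measured heat shock genes, 0 passed without the block and 4 were called higher with it, with Hspa1a at 0.66, although its near-identical copy may share its reads.

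Genes of dendritic cell maturation showed no call without the block. The migration receptor Ccr7 had means of 1147 and 1060 CPM (-0.11 ± 0.11, adjusted p = 0.833) and the costimulatory Cd86 773 and 819 CPM (0.08 ± 0.08, adjusted p = 0.833), and neither passed with the block. Cd80 stood at 736, 701 and 721 CPM against 719 and 713 CPM, samples that overlapped. Of 20 measured maturation and costimulation genes, 1 was called higher and 6 lower with the block, among the latter Cd40 (-0.23, adjusted p = 0.00251), the receptor through which T cells license dendritic cells, Pdcd1lg2 (-0.41, adjusted p = 8.34e-11), which encodes the inhibitory ligand PD-L2, and Il4i1 (-0.36, adjusted p = 8.70e-10). Further lists without a call in the fit without the block were MHC class I and the immunoproteasome (16 measured), glycolysis (19), LXR targets (11), metallothioneins (8), cell division (30), cell death machinery (20) and the aryl hydrocarbon receptor (6). With the block, glycolysis had 5 genes called higher and 0 lower, LXR targets 2 higher and 4 lower, and metallothioneins 0. Of 14 measured hypoxia genes Ddit4 alone was called, and of 26 genes of dying-cell uptake Timd4 alone. With the block 3 genes of that last list were called lower, Timd4 and the scavenger receptors Olr1 (-0.73, adjusted p = 9.56e-21) and Cd36 (-0.29, adjusted p = 3.90e-08), and 1 higher, Cd300a (0.16, adjusted p = 0.023), which makes a share near that of all genes.

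**Figure D4:**
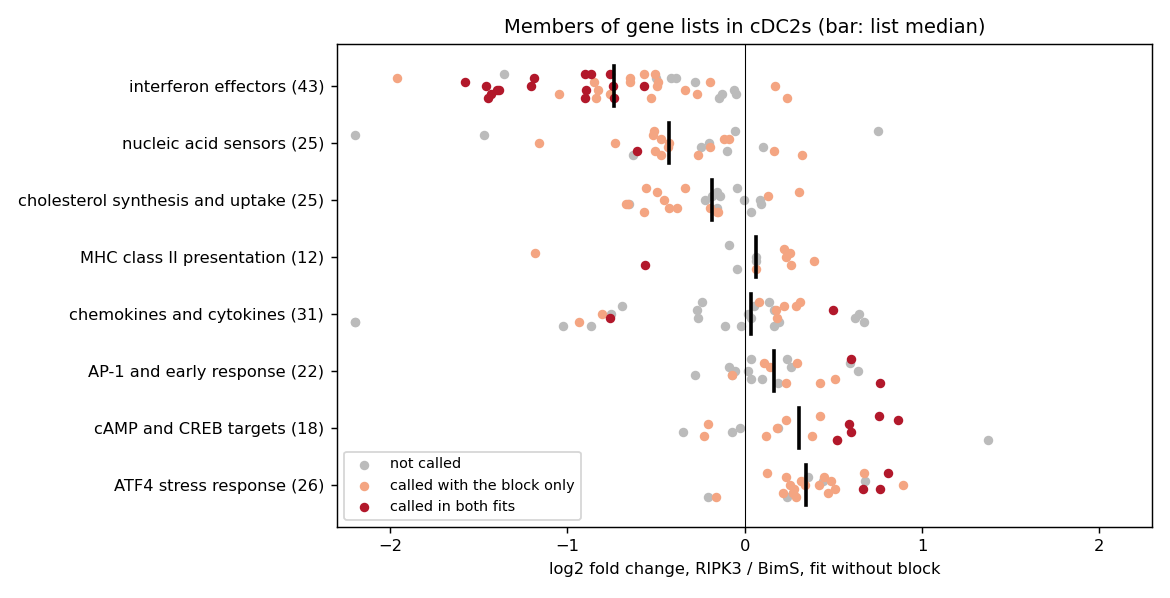
Log2 fold change of RIPK3 against BimS medium in cDC2s without the replicate block, 1 point per measured gene of 8 lists, coloured by whether it was called with the block only or in both fits, with a bar at the median of each list. The interferon effectors have a median of -0.74 with 16 called lower, and the ATF4 list a median of 0.35 with 3 called higher; 3 members (Tlr3, Il12a and Il23a) lie outside the axis and are drawn at its edge.

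The summed markers of B, T and NK, monocyte, macrophage and tumor cells lay under those of cDC2s, while those of plasmacytoid cells and cDC1s came nearer to them, and some markers moved with the comparison. The sums are in CPM without TMM scaling, unlike the levels of single genes. Ighm, the immunoglobulin heavy chain, rose from 26.2, 26.1 and 31.9 CPM to 44.7 and 45.3 CPM (0.68 ± 0.11, adjusted p = 0.00708), while the B cell genes Cd79a, Cd79b, Ms4a1 and Pax5 each had means of at most 0.274 CPM in both groups, and the whole list of 10 summed to 27.0 to 32.9 CPM with BimS medium and to 45.8 to 46.8 CPM with RIPK3 medium. The 11 monocyte and neutrophil markers summed to 43.2 to 55.1 CPM and to 56.7 to 63.0 CPM, which did not overlap, with 1 of the 11 at 0 in all cDC2 samples. The 9 macrophage markers summed to 59.9 to 69.4 CPM against 55.3 to 68.0 CPM, the 10 T and NK cell markers to at most 1.87 CPM, and the tumor cell markers to 25.4 to 39.4 CPM against 28.1 to 32.2 CPM. The 9 cDC2 markers summed to 312 to 338 CPM against 280 to 316 CPM, and the 10 cDC1 markers to 123 to 150 CPM against 117 to 131 CPM. The plasmacytoid dendritic cell markers summed to 249 to 264 CPM against 230 to 232 CPM, while the defining Siglech had means of 0.309 and 0.358 CPM. With the block, the cDC2 markers Clec10a (-0.50), Irf4 (-0.41), Itgam (-0.29) and Cd209a (-0.21) were called lower, as were Naaa (-0.60) and Wdfy4 (-0.33) of the cDC1 list, Fcgr1 (-0.44) of macrophages, Tcf4 (-0.17) of plasmacytoid cells and Cdh1 (-0.39) of the tumor list. Irf8 (0.40) of the cDC1 list, Plac8 (0.37) of the monocyte list, the scarce C1qa (0.238 to 0.699 CPM) and C1qb (0.632 to 1.18 CPM) of macrophages, Vcam1 (0.287 to 0.768 CPM), and Col18a1 (0.0569 to 0.535 CPM), Sparc (0.171 to 0.782 CPM) and Timp1 (2.67 to 4.17 CPM) of the tumor list were called higher. The part of these markers in the results above was not tested.

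The same comparison in cDC1s, which shares no sample with that in cDC2s, gave 810 calls among 19513 genes (4.15%). The methods describe the sorting of both cell types after 1 culture step of CD11c+ cells, so the comparisons may share cultures and are not taken as independent. Of the 73 genes called in cDC2s, 42 were also called in cDC1s, 21 lower and 21 higher, and all 42 in the same direction. The median log2 fold change of the 42 genes that fell was -0.80 in cDC2s and -0.50 in cDC1s, and that of the 31 genes that rose was 0.62 and 0.42. The genes were chosen by their test in cDC2s, which favours larger values there, so these medians do not compare the cell types. Of the antiviral genes, Ifit2 (-1.39, adjusted p = 0.0247), Gbp7 (-1.19, adjusted p = 6.67e-06) and Slfn5 (-1.18, adjusted p = 0.00911) fell in cDC1s as well. Ifit1 stood at -0.90 there and passed with the block only (adjusted p = 0.0522 without it and 0.0135 with it). Traf4 rose in cDC1s by 0.93 (adjusted p = 1.17e-12), Ddit4 by 0.82 (adjusted p = 4.27e-06) and Hmox1 by 0.38 (adjusted p = 1.02e-05). The exceptions in direction were Ifit3b (0.42, adjusted p = 0.882) and Hopx (-0.37, adjusted p = 0.72), neither of them called in cDC1s.

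Whether the difference between the debris types itself differs between the cell types was tested with an interaction over all 17 samples. It passed for 6 of 19082 genes (0.0314%), and for 27 with the block (0.141%). The first fit gave 0 genes without RIPK3 replicate 2 of the cDC2s (785 at an unadjusted p under 0.05), and 3 and 2 without BimS replicates 1 and 3. Of the 73 genes, Gem and Jdp2 passed: Gem rose by 0.59 in cDC2s and stood at 0.11 ± 0.05 in cDC1s (adjusted p = 0.259), a difference of 0.49 ± 0.09 (adjusted p = 0.0415), and Jdp2 rose by 0.57 and stood at 0.04 ± 0.05 in cDC1s (adjusted p = 0.738), a difference of 0.54 ± 0.10 (adjusted p = 0.0415). With the block Abcg3 passed as well, having fallen by 1.0 in cDC2s and standing at -0.13 in cDC1s. For the remaining genes of the 73 neither fit called a difference between the cell types, which does not show that they moved alike.

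**Figure D5:**
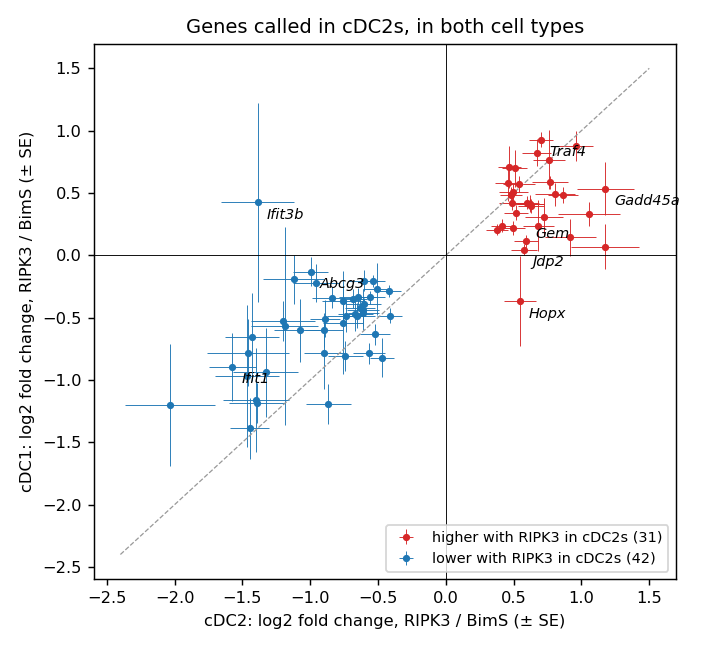
Log2 fold change of RIPK3 against BimS medium in cDC2s (horizontal axis) and in cDC1s (vertical axis) for the 73 genes called in cDC2s, 1 point per gene with bars of 1 SE in each direction and a dashed line of equal change. The genes were chosen by their test in cDC2s, where the falls have a median of -0.80, beside -0.50 in cDC1s, and Gem and Jdp2 lie near 0 on the cDC1 axis.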

How the data were processed

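Polyadenylated RNA of sorted cells was sequenced. The authors trimmed reads with SeqPurge, aligned them with STAR 2.7.10a to GRCm39 with Ensembl gene models and counted reads per gene with gensum; the deposited counts are whole numbers without normalization. Their deposited normalized table and their comparisons were not used. No sample column was left unmapped (0). The 148 lines without a gene identifier, 0.0258% to 0.0366% of a sample's counts, were left out.

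Tests covered genes counted above 0 in 50% or more of the 8 cDC2 samples, and were made in R 4.3.3 with edgeR 4.0.16 (robust quasi-likelihood, TMM) as RIPK3 against BimS medium, with Benjamini-Hochberg adjustment and a threshold of 0.05, without and with the replicate number as a block. The interaction used all 17 samples, and cDC1s were fitted alone. The authors transformed counts as log2(count + 1) and tested with limma; limma 3.58.1 on log2(count + 1) was tried as an alternative, beside DESeq2 1.42.0, RLE size factors, other filters, the 5 samples alone and each sample left out. Length and GC terms were added after seeing the data. The procedure was tested on simulated data.

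The numbers come from the labels. After removal of group means, samples of the same number correlated at 0.265 to 0.788 over 7738 genes with a mean log2 CPM of 3 or more. Samples of different numbers correlated at -0.712 to 0.181, but removing the means itself lowers these values. It also makes the 2 RIPK3 samples mirror images, at 0.427 and -0.427 against BimS replicate 1. RIPK3 replicate 2 correlated at 0.265 with BimS replicate 2 and at 0.166 with BimS replicate 3. BimS and WT samples of the same number correlated at 0.533 to 0.788. The numbers were taken to pair the samples, with less ground for the RIPK3 samples.

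Genes were named by rule: the 10 largest rises and falls among calls without the block with a mean log2 CPM of 1 or more and groups not overlapping; the 10 largest rises and falls called with the block only, with a mean of 3 or more and both pairs in 1 direction; up to 4 called genes per list, or where fewer than 2 were called its most abundant gene; and Ripk3 and Bcl2l11. The comparison and the gene lists were chosen with earlier results of these data known. Promoters are RefSeq windows of GRCm38.p6; 11388 genes tested had one. Reads carry no molecular identifiers. Some genes that the rule or the lists hold are not reported here.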

Additional observations from a re-analysis of the deposited data

Results flagged for a closer look

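The difference between RIPK3 and BimS medium was unlike in cDC2s and cDC1s for 6 genes, by edgeR's interaction test with Benjamini-Hochberg adjustment over 19082 genes. Each value is the log2 fold change in cDC2s less that in cDC1s. For Gem it was 0.49 ± 0.09 and for Jdp2 0.54 ± 0.10 (adjusted p = 0.0415 for both), and these are the 2 of the 6 that rose in cDC2s. For the others the change was in cDC1s: Hpgds, a prostaglandin D synthase, had a difference of 2.41 ± 0.35 (adjusted p = 0.00374), with -1.89 in cDC1s and 0.52 in cDC2s. Sema4d, a semaphorin, had 1.39 ± 0.20 (adjusted p = 0.00374), with -1.28 in cDC1s and 0.11 in cDC2s. Cldn1, a tight junction protein, had 1.83 ± 0.31 (adjusted p = 0.0133), with -1.69 in cDC1s and 0.13 in cDC2s, and Tent5c, a poly(A) polymerase, had 0.57 ± 0.11 (adjusted p = 0.0415), with -0.47 and 0.09. None of these 4 was called in cDC2s in either fit. Cldn1 in cDC2s was measured at 1.24 to 2.06 CPM and Hpgds at 1.82 to 3.15 CPM over the 5 samples, so few reads stand behind these values.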

How the results depend on the processing

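Without the block, the 73 calls became 140 with DESeq2, 46 with the filter filterByExpr, 300 with no filter, 148 with limma on log2 counts without normalization, 253 with only the 5 samples compared, 2755 with the replicate block and 152 with terms for length and GC content (an alternative added after seeing the data), and 78 with RLE size factors and 60 with limma on log2 CPM. All 73 remained called with DESeq2, RLE size factors, no filter, the 5 samples and the block, 52 with limma on log2 counts and 46 with filterByExpr. Leaving out 1 library at a time gave 0 to 214 calls, and none of the 73 kept its call without RIPK3 replicate 2. The blocked count of 2755 was 1499 to 2876 over the same omissions and 73 with no replicate block. The 6 interactions became 19 with DESeq2 and 27 with the replicate block, and 0 to 5 when the cDC2 samples with BimS or RIPK3 medium were left out in turn; other samples were not left out of it.

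Among the genes named, the direction turned only where the change was small and not called without the block. With limma on log2 counts it was -0.051 for Mtf1, -0.034 for H2-D1, -0.020 for Il1b, -0.0094 for Tent5c and -0.0050 for Sema4d, and with length and GC content 0.012 for Clock. Leaving out 1 library at a time gave -0.75 to 0.18 for Cd200, -0.036 to 0.29 for Ripk3 and -0.094 to 0.28 for Sema4d, in each case with the lowest and highest values without 1 or the other RIPK3 sample. It gave -0.37 to 0.094 for Mki67, which was also above 0 without BimS replicate 2 (0.054), and -0.044 to 0.29 for Cldn1. The causes were not tested. Pairing by replicate number was used as the second fit throughout, and with this replicate block (2755 calls) all 73 calls kept their direction. RIPK3 medium had 2 cDC2 samples, and depth was not varied.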
